A study of Homo sapiens with 21 samples.

Results

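The genes described here are the 3 D-type cyclins, CCND1, CCND2 and CCND3, and their catalytic partners CDK4 and CDK6. They are 5 of 19974 protein-coding genes on chromosomes 1 to 22 and X, and were chosen by name. Every row of 14 peak lists that lay inside one of them, within 1 kb of a gene end, or within 20 kb outside the gene was taken. The lists come from chromatin immunoprecipitation with sequencing (ChIP-seq), which recovers the DNA bound by a chosen protein or carrying a chosen histone mark. All libraries were made from CAMA1, a human breast cancer line labelled as oestrogen receptor-positive and FGFR1-amplified, at a passage below 10 and after 48 h without estradiol. In untransfected cells the targets were FGFR1, H3K4me3, H3K27ac, RNA polymerase II phosphorylated at serine 5 (Pol II S5P) and FOXA1, and in cells transfected with siNT or siFOXA1 and collected after 72 h the target was FGFR1. Each of these 7 groups had 2 lists. A single cell line was used, and the level of FOXA1 after siFOXA1 was not analysed here.

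D-type cyclins accumulate when a cell receives growth signals and bind CDK4 or CDK6. The active pair phosphorylates the retinoblastoma protein, which releases E2F factors and opens the way to DNA replication, while the INK4 proteins block the kinases. In luminal breast cancer CCND1 is a well-known oestrogen-responsive and frequently amplified gene, and inhibitors of CDK4 and CDK6 are standard treatment. FGFR1 is a receptor for fibroblast growth factors at the cell surface that can also reach the nucleus, and FOXA1 is a forkhead protein that makes closed chromatin accessible to the oestrogen receptor. H3K4me3 marks promoters, H3K27ac marks active promoters and enhancers, and Pol II S5P marks polymerase at the beginning of transcription.

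RefSeq promoter entries (GRCh38.p14) were matched for 3 of the 5 genes, with 6 listed starts, all on the minus strand. The 250 bases before a start are shown for the CDK4 promoter, which had FGFR1 in untransfected and siFOXA1 lists, for the internal CCND3 start, which had FGFR1 in untransfected lists only, and for the upstream CDK6 start, which had no FGFR1 row within 1 kb. Capitals mark E-boxes (CACGTG) and GC boxes (GGGCGG on either strand, read as CCGCCC on the other). The CDK4 window is chr12:57752311-57752560, the CCND3 window chr6:41941809-41942058 and the CDK6 window chr7:92836574-92836823, each printed 5′ to 3′ on the minus strand.
CDK4: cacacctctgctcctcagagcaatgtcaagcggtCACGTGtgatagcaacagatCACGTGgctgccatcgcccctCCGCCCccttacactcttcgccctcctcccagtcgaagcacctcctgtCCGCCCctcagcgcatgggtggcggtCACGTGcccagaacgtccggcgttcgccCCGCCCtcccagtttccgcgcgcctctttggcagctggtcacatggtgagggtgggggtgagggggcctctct
CCND3: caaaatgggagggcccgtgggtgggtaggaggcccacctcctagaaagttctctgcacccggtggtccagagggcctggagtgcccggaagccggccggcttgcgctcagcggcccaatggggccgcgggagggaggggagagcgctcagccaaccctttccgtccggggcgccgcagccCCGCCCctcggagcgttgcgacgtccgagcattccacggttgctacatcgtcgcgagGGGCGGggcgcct
CDK6: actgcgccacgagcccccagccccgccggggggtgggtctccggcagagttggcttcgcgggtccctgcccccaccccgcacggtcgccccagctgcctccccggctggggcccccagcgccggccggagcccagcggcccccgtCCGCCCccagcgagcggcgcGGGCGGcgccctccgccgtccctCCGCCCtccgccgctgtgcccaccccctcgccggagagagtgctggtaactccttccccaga
The CDK4 window held 3 E-boxes, beginning at positions -216, -196 and -101 relative to the start, and 3 GC boxes. Of 35116 listed promoters 6.34% held an E-box in these 250 bases, and 28 promoters (0.0797%) held 3 or more. The CCND3 window held 2 GC boxes and a CCAAT box, and the CDK6 window held 3 GC boxes. GC boxes stood in 42.6% of promoters, with 3 or more in 13.9%, and CCAAT boxes in 32%. No match to the cAMP response element TGACGTCA, the AP-1 site TGANTCA or the forkhead site TGTTTAC lay in these 3 windows, and such matches stood in 1.65%, 6.57% and 2.98% of promoters. The windows were 65.6% (CDK4), 71.2% (CCND3) and 80% (CDK6) G and C, where the median promoter had 58%.

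The lists differed in length, with 5341 and 13135 rows for FGFR1 without transfection, 6007 and 6594 for siNT, and 4332 and 5056 for siFOXA1. Those of H3K4me3 held 41399 and 38624 rows, those of H3K27ac 154358 and 145991, those of Pol II S5P 18713 and 12267, and those of FOXA1 123582 and 127427. The background of the FGFR1 lists was 3.4 and 3.5 fragments per position without transfection, 2.19 in each siNT list, and 2.11 and 2.2 after siFOXA1. The lowest FGFR1 row held 14 and 12 fragments in the untransfected lists and 10 in each transfected list. Fold enrichment is the caller's ratio over that background, and is read here against the other rows of its own list, as a percentile. The peak names inside the lists labelled FOXA1 read FOXA2, so the target of those lists rests on the labels alone. Whether paired libraries were grown as separate cultures is not stated, and p-values measure only the spread between these libraries, which may be technical.

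Across the 5 genes, chromatin state at the gene ends ran from dense to empty. CCND1 had a reproducible region, meaning a stretch listed in both lists of a group, of every target at an end, and CCND2 had none of any target. In untransfected cells a reproducible FGFR1 region lay at an end of 3 of the 5 genes, CCND1, CCND3 and CDK4, where 19.9% of all protein-coding genes had one. After siNT it was 2 genes, CCND1 and CCND3 (4.85% of all genes), and after siFOXA1 2 genes, CCND1 and CDK4 (1.95%). H3K4me3 and H3K27ac lay at an end of 4 genes, all but CCND2 (66.6% and 67.5% of all genes). With a window of 3 kb CCND2 gained both marks, and with some stricter settings CDK6 lost H3K27ac. Pol II S5P lay at an end of CCND1, CCND3 and CDK4 (38.9% of all genes) and FOXA1 at an end of CCND1 and CCND3 (32.3%). Within 20 kb of the gene, reproducible FGFR1 was found at 4 of the 5 genes in untransfected cells (31.4% of all genes), 2 after siNT (11.3%) and 2 after siFOXA1 (5.2%). H3K4me3 and H3K27ac were found there at all 5 (83.6% and 84.4%), Pol II S5P at 4 (52.5%) and FOXA1 at 4 (82.1%). With 5 genes the counts are a description and were not tested. Shares of all genes with all 5 targets at an end in untransfected cells were 10.9%, which included CCND1 and CCND3, and with none 27.7%, which included CCND2. The FGFR1 and Pol II S5P regions counted at an end of CCND3 both lay beside the neighbouring gene TAF8, described below. Pol II S5P summits there lay 0.57 and 0.55 kb past CCND3.

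**Figure D1:**
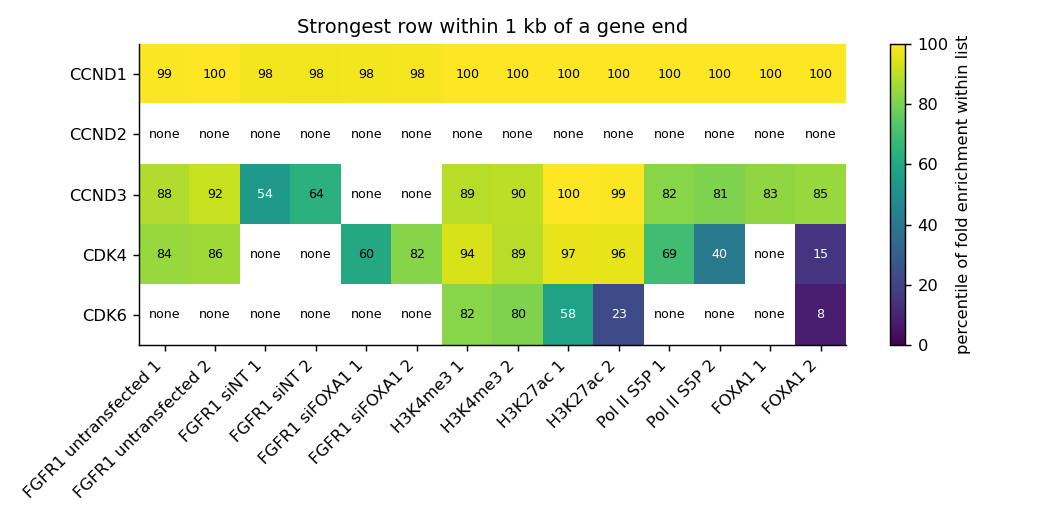
Percentile of fold enrichment, within its own list, of the strongest row within 1 kb of either end of each gene (rows) in each of the 14 lists (columns), with white cells where no row was listed. CCND1 stood at percentile 97.9 or above in all 14 lists, and CCND2 had no row in any.

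CCND1 encodes cyclin D1 and lies at chr11:69641156-69654474 (hg38), with its start at the lower coordinate. Its strongest FGFR1 peak sat at that start in all 6 FGFR1 lists. In untransfected cells the peak had a fold enrichment of 21.6 (94 fragments, 95% exact Poisson interval 76 to 115) in the first list and 27.8 (124 fragments, 103 to 148) in the second. After siNT it had 20.1 (63 fragments, 48.4 to 80.6) and 17.9 (56 fragments, 42.3 to 72.7). After siFOXA1 it had 16.7 (51 fragments, 38 to 67.1) and 17.2 (54 fragments, 40.6 to 70.5). These intervals cover counting error only, and those of the 4 transfected lists all overlapped. Within its list the peak stood at percentile 99.4 and 99.8 of fold enrichment without transfection, 98.3 and 97.9 with siNT, and 98.2 and 98.5 with siFOXA1. Summits lay between -0.19 and -0.07 kb from the start, outside the gene, in all 6 lists. A row at a gene end in all 6 lists was found for 1.94% of protein-coding genes, of which CCND1 is one.

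FGFR1 rows also spread over the CCND1 body and its surroundings. In untransfected cells 9 reproducible regions lay within 20 kb, of which 3 were at an end, 2 inside and 4 outside. All 9 overlapped H3K27ac and Pol II S5P regions (96.1% and 83.1% of all 4736 FGFR1 regions of untransfected cells). H3K4me3 overlapped 6 of the 9 (95.3% of all) and FOXA1 also 6 (44%). A second region inside the gene, chr11:69641762-69645819, had fold enrichments of 10.7 and 11.5 without transfection, 7.53 and 10.7 with siNT, and 8.04 and 5.63 with siFOXA1. It held a FOXA1 peak with a summit 3.18 and 3.17 kb from the start, at fold 24.4 and 21.7 (percentiles 90.4 and 89.4 of the FOXA1 lists). At the far end of the gene, chr11:69653437-69656463 had FGFR1 folds of 7.28 and 14.9 in untransfected cells and 4.39 and 6.58 after siNT, and after siFOXA1 a row of fold 5 in the second list only. That far end carried the strongest FOXA1 peak of the window, with fold 75.7 and 68.4 and a summit 0.5 and 0.51 kb past the gene, at percentiles 100 and 99.9 of its lists after rounding. FOXA1 at the CCND1 start was lower, with fold 16.3 and 12.7 (percentiles 82.5 and 77.8). In untransfected cells the start thus had the higher FGFR1 peak and the far end the higher FOXA1 peak, in both lists of each.

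H3K27ac and Pol II S5P covered most of the CCND1 window. A single H3K27ac row of 30846 bp in the first list and 30041 bp in the second spanned the whole gene, with folds of 78.1 and 77.4. The H3K4me3 row over the start was 7664 and 7486 bp wide, with folds of 109 and 113, and was wider than 99.9% and 99.8% of rows in its lists. A further H3K4me3 row lay over the far end, with folds of 45.3 and 38.3. Pol II S5P was a row of 19035 bp and fold 43 in the first list, reaching from before the start to beyond the far end. In the second list it was split, with rows of 10810 bp (fold 33.6) and 5476 bp (fold 16.8) as the largest pieces. Its summit lay 0.05 and 0.06 kb inside the start. Of the 53319 bp window, H3K27ac rows covered 80.3% and 84.8%, Pol II S5P rows 64.7% and 51.8%, and FGFR1 rows 19.6% and 39.9% in untransfected cells.

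**Figure D2:**
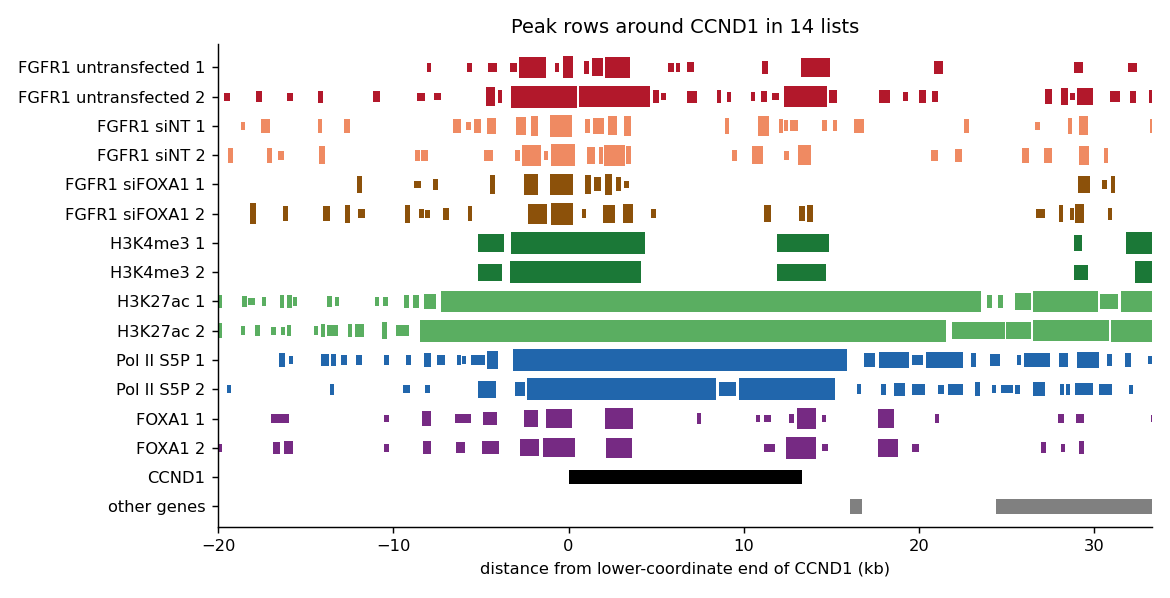
Peak rows of the 14 lists around CCND1, with distance from the lower-coordinate end of the gene in kb on the horizontal axis and 1 line per list. Bars span each row, their height grows with the percentile of fold enrichment within the list, and black and grey bars are CCND1 and other protein-coding genes. FGFR1 rows in all 6 lists are tallest at the start, where H3K4me3 and Pol II S5P also lie.

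Peaks were crowded in the whole surroundings of CCND1, and the crowding differed between targets. In the 1 Mb around the gene the density of FGFR1 rows was 31.8 and 43.4 times the mean of the untransfected lists. It was 98.3 and 102 times the mean of the siNT lists, and 145 and 140 times that of the siFOXA1 lists. By number, this 1 Mb held 56 and 188 untransfected rows, 195 and 221 siNT rows, and 207 and 234 siFOXA1 rows. The siNT and siFOXA1 numbers overlapped. The higher siFOXA1 ratios thus came with lower list means, 1.43 and 1.67 rows per Mb beside 1.98 and 2.18 for siNT. The density of Pol II S5P rows was 53.1 and 48.6 times the mean, whereas H3K27ac reached 6.75 and 6.95 times, FOXA1 4.48 and 4.68 times and H3K4me3 3.37 and 3.69 times. Copy number was not measured in these files, and its part in the CCND1 values was not tested. The CCND1 start held the strongest FGFR1 row of this 1 Mb in all 6 lists. The median fold of the FGFR1 rows there was 4.09 in the first untransfected list and 4 in the second, against 21.6 and 27.8 at the start. The neighbour LTO1, 11089 bp beyond the far end, also had FGFR1 at an end in all 6 lists, with untransfected folds of 10 and 14.7, siNT folds of 5.96 and 6.89, and siFOXA1 folds of 5.15 and 8.13.

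CCND2, which encodes cyclin D2 and lies at chr12:4273762-4305353, had no row of any of the 14 lists in the gene or within 1 kb of its ends. The window was sparse in every target. A reproducible H3K4me3 row of fold 7.65 and 7.66 lay 2.92 and 2.79 kb past the high-coordinate end. The next, with fold 76.5 and 81.4, lay 16.07 and 16.06 kb past it, at the end of TIGAR, which encodes a fructose bisphosphatase. FGFR1 had a single row in the window, of fold 4.66 in the second untransfected list, also at TIGAR. Pol II S5P had a single row of fold 4.49 and FOXA1 a single row of fold 3.96, each in the first list only. The 1 Mb around CCND2 held 0 and 1 FGFR1 rows in the untransfected lists and 0 in the 4 transfected lists. The lists hold only rows above the caller's threshold, so weaker signal at CCND2 was not detectable here.

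CCND3 encodes cyclin D3 and lies at chr6:41934933-42050035, with RefSeq starts listed at 42048688, 41941808 and 41939205 on the minus strand. Its FGFR1 signal was split between an internal start and the high-coordinate end. At the internal start 41941808, whose upstream window is printed above, FGFR1 had folds of 4.78 and 7.11 in untransfected cells and no row in the siNT or siFOXA1 lists. The same start carried the strongest H3K4me3 of the window, with folds of 106 and 110 (percentiles 98.9 and 99.1). It also carried the strongest Pol II S5P, with folds of 12.6 and 11 and summits 23 and 113 bp inside the start. H3K27ac there had folds of 43.6 and 42.8, and FOXA1 had no row within 1 kb. At the upstream start 42048688, FGFR1 had a row in the second untransfected list only (6.22) and in the second siNT list only (4.39), and Pol II S5P in the first list only (3.83). FOXA1 there had folds of 14.2 and 17.1, and H3K4me3 94.8 and 94.4. So the internal start had FGFR1 and Pol II S5P in both lists and no FOXA1, and the upstream start had FOXA1 in both lists but neither FGFR1 nor Pol II S5P in both.

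The FGFR1 region counted at an end of CCND3 lies beside another gene. TAF8, which encodes a subunit of the general transcription factor TFIID, begins 489 bp past the high-coordinate end of CCND3. FGFR1 summits there lay 544 and 555 bp past CCND3, and 55 and 66 bp inside TAF8, in untransfected cells. The folds were 8.64 (37 fragments, 26.1 to 51) and 10.7 (47 fragments, 34.5 to 62.5) in untransfected cells and 5.02 (15 fragments, 8.4 to 24.7) and 5.33 (16 fragments, 9.15 to 26) after siNT. After siFOXA1 neither list had a row there. Such a loss was found at an end of 349 genes (1.75% of all), where 968 (4.85%) had a reproducible siNT region at an end. Of all siNT regions, 34.7% were in neither siFOXA1 list. The intervals of the siNT rows reach down to the 10 fragments of the weakest listed rows, so counting error alone spans the limit of listing. With windows around the listed RefSeq starts, an alternative chosen after these rows were seen, CCND3 had its FGFR1 call in untransfected cells at the internal start, and had none after siNT. Of the 3 genes with listed starts, FGFR1 then lay at 2 in untransfected cells (20.8% of 15813 genes with such starts), 0 after siNT (4.45%) and 1, CDK4, after siFOXA1 (1.69%). H3K4me3 and H3K27ac lay at all 3 (69.6% and 69.1%), Pol II S5P at 2 (41.6%) and FOXA1 at 1, CCND3 (30.5%). FOXA1 had 10 reproducible regions in the CCND3 window, 3 at an end, 5 inside and 2 outside, of which 1, beside TAF8, overlapped an FGFR1 region, as did 2.1% of all FOXA1 regions. The strongest, with folds of 19.6 and 18.9, lay 5.76 kb inside the high-coordinate end.

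CDK4, the kinase partner of the D-type cyclins with the shortest gene here, lies at chr12:57747727-57752310 and starts at its higher coordinate. FGFR1 was listed at this start in untransfected cells and after siFOXA1, and not after siNT. In untransfected cells the folds were 7.96 (34 fragments, 23.5 to 47.5) and 8.88 (39 fragments, 27.7 to 53.3), at percentiles 84.4 and 85.8. Neither siNT list had a row within 20 kb of CDK4. The siFOXA1 lists had folds of 5.15 (15 fragments, 8.4 to 24.7) and 5.63 (17 fragments, 9.9 to 27.2), at percentiles 60.3 and 81.7. The 4 summits lay 250 and 287 bp (untransfected) and 232 and 267 bp (siFOXA1) before the start, upstream of the 3 E-boxes printed above. A row at an end in both siFOXA1 lists and in neither siNT list was found for 9 of 19974 genes (0.0451%), CDK4 among them. A reproducible siFOXA1 region lay at an end of 390 genes (1.95%). Of 3949 genes that had FGFR1 in both untransfected lists at an end, 5 (0.127%) had none after siNT and a row in both siFOXA1 lists. The lower bounds of the siFOXA1 intervals lie under the 10 fragments of the weakest siNT rows, and with a −log10 q of at least 5 CDK4 lost its siFOXA1 call.

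The CDK4 start carried strong promoter marks. H3K4me3 had folds of 101 and 98.7 and H3K27ac 35 and 35.6. Pol II S5P had folds of 8.02 and 5.66, at percentiles 69.4 and 40.4, with summits 24 and 63 bp inside the start. FOXA1 was weak, with no row in the first list and a row of fold 3.94 (percentile 15) in the second. The gene overlaps TSPAN31, which encodes a tetraspanin and had no reproducible FGFR1 region at an end. In the CDK4 window 7 H3K4me3 regions lay across neighbouring genes, and 1 of them, that of CDK4, overlapped a reproducible FGFR1 region of untransfected cells, as did 12.8% of all H3K4me3 regions. The 1 Mb around CDK4 was not crowded in the manner of CCND1, with FGFR1 densities 3.4 and 4.15 times the mean of the untransfected lists.

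CDK6, the other kinase partner, spans chr7:92604921-92836573 with starts listed at 92836573 and 92833959. It had promoter marks with neither Pol II S5P nor FGFR1 at an end, a state shared by 23.2% of protein-coding genes. Among all genes with H3K4me3 at an end, 29.9% had FGFR1, 58.2% Pol II S5P, 43.8% FOXA1 and 95.2% H3K27ac there. A broad H3K4me3 row of 4468 and 4286 bp, with folds of 88.5 and 87.9, covered both starts. That row stood at percentiles 82.3 and 80.5 of its lists. H3K27ac near the internal start had folds of 9.82 and 9.92, at percentiles 83.6 and 83, and within 1 kb of the gene end 4.55 and 3.39, at percentiles 57.8 and 22.9. The H3K27ac call at the gene end was lost with a −log10 q of at least 5, with reciprocal overlap of 50% and with a window of 500 bp. No Pol II S5P row lay in the gene or within 1 kb of it in either list. The only FGFR1 row in the gene was in the second untransfected list, with fold 4 (17 fragments) at percentile 19.5 of its list, 773 bp inside the start 92833959. Reproducible FGFR1 and Pol II S5P in the CDK6 window lay outside the gene, at FAM133B, where FGFR1 had folds of 5 and 6.66 and Pol II S5P 11.8 and 7.9.

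FOXA1 at CDK6 lay in the gene body. It had 8 reproducible regions, all inside the gene, of which 1 overlapped H3K4me3 and H3K27ac (21.4% and 50.4% of all FOXA1 regions) and none overlapped FGFR1. The strongest, with folds of 20.2 and 14.8 (percentiles 87.1 and 81.6), lay 69.47 kb from the low-coordinate end. Near the start FOXA1 had a row in the second list only, of fold 3.56. Reproducible FGFR1 of untransfected cells overlapped 2.1% of all 104200 FOXA1 regions, beside none of 8 at CDK6. At CCND1 it overlapped 8 of 14 FOXA1 regions, in the crowded surroundings described above. Of the 13 reproducible FGFR1 regions of untransfected cells at these 5 genes, 7 overlapped FOXA1 (6 at CCND1 and 1 at the TAF8 side of CCND3), 13 Pol II S5P and 10 H3K4me3.

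**Figure D3:**
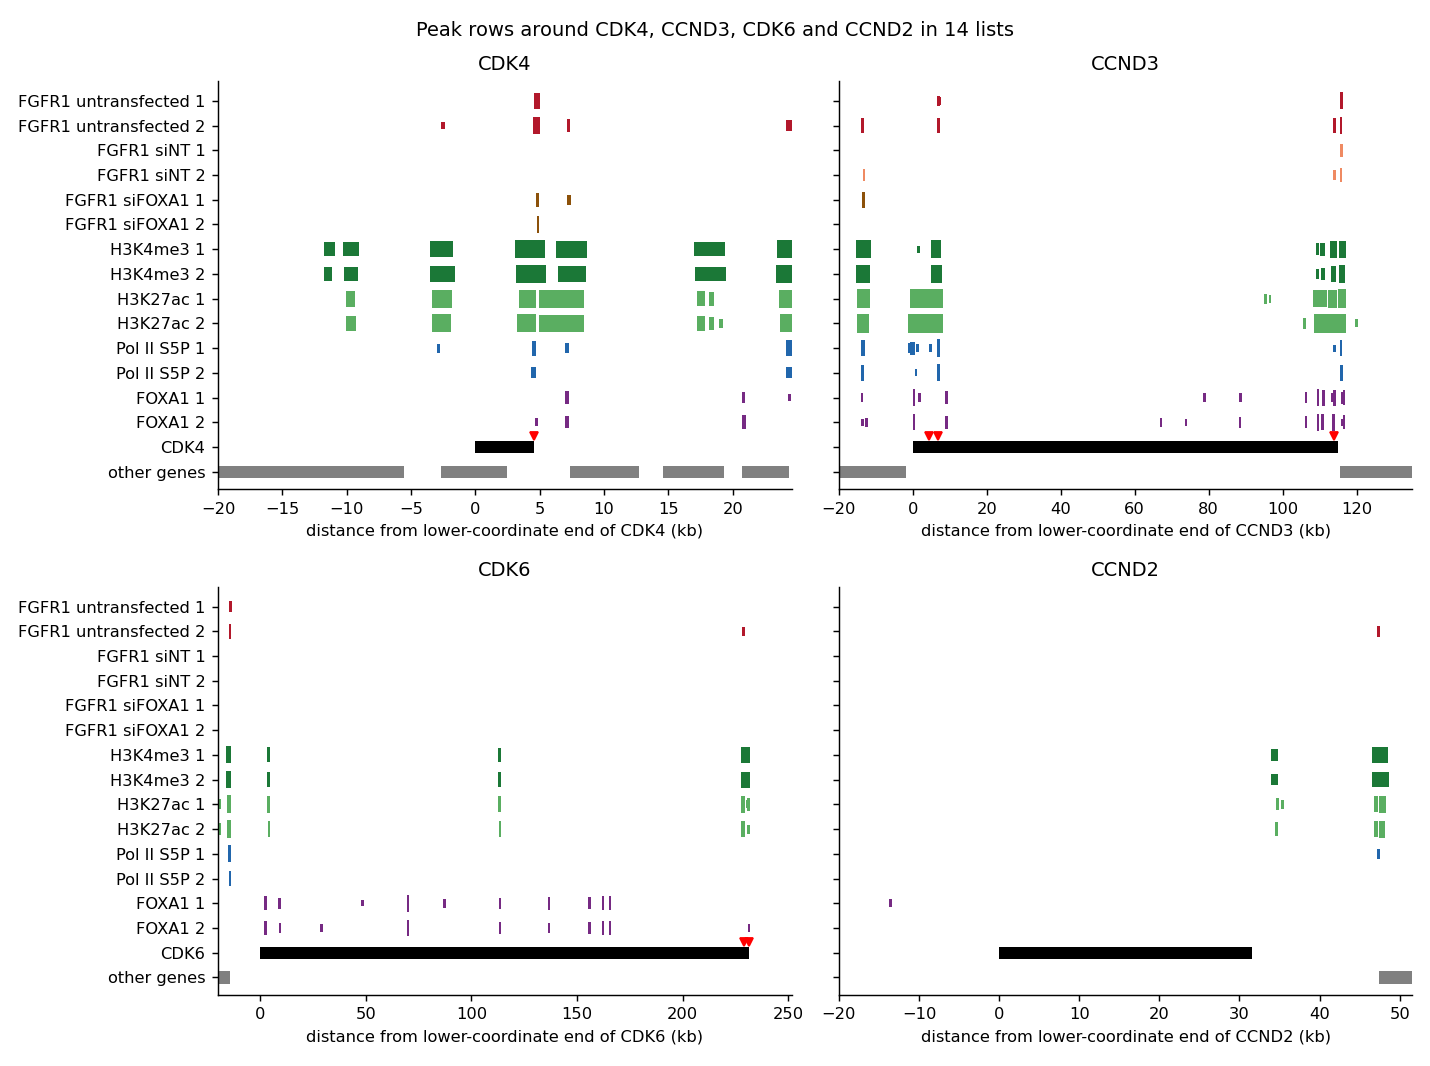
Peak rows of the 14 lists around CDK4, CCND3, CDK6 and CCND2, with distance from the lower-coordinate end of each gene in kb, bar height growing with the percentile of fold enrichment within the list, and a minimum drawn width. Red triangles are listed RefSeq starts, black bars the genes and grey bars other protein-coding genes. FGFR1 rows stand at the CDK4 start in the untransfected and siFOXA1 lists, and CCND2 has no row in its body.

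FGFR1 rows were then compared between siFOXA1 and siNT, the contrast that asks how FGFR1 on chromatin stands when FOXA1 is targeted. At CCND1 the 2 siNT lists held 28 and 25 rows within 20 kb and the 2 siFOXA1 lists 14 and 24, with 18 and 32 in untransfected cells. The siFOXA1 lists both lay below both siNT lists, as for 1088 genes (5.45% of all protein-coding genes). Only genes with rows in both siNT lists can show this order, and their number was not counted. A narrower set, 2253 genes (11.3%), had reproducible siNT FGFR1 within 20 kb, where rows of both lists overlap. The siFOXA1 lists were also the shorter ones. The CCND1 means were 26.5 ± 2.12 (SD, n = 2) for siNT and 19 ± 7.07 (SD, n = 2) for siFOXA1, a ratio of 0.717. The two-sided exact permutation p was 0.33 (0.67 after Benjamini-Hochberg adjustment over 6 tests), which is the smallest p that 2 lists against 2 can give. When all 4 lists were cut to the same length of 4332 strongest rows, CCND1 had 21 and 16 rows after siNT and 14 and 23 after siFOXA1, and the difference of the means was 0. In lists of equal length the CCND1 groups thus overlapped. The spread between the 2 siFOXA1 lists, 14 against 24 rows, exceeded the difference of the means. Without the first siFOXA1 list the difference, siFOXA1 minus siNT, was -2.5 rows, and without the second it was -12.5.

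At CDK4 the siNT lists held 0 and 0 rows and the siFOXA1 lists 2 and 1, with 1 and 4 in untransfected cells. Both siFOXA1 lists lay above both siNT lists, as for 0.315% of all genes, where 5.2% had reproducible siFOXA1 FGFR1 within 20 kb. The exact permutation p was again 0.33 (adjusted 0.67). This order stayed with lists of equal length, where CDK4 had 0 and 0 rows against 2 and 1. At CCND3 the siNT lists held 1 and 3 rows and the siFOXA1 lists 1 and 0, and the groups overlapped (exact permutation p = 0.667, adjusted 1). CCND2 and CDK6 had no FGFR1 row in any of the 4 transfected lists. Over the 5 genes together the siNT lists held 29 and 28 rows and the siFOXA1 lists 17 and 25 (28.5 ± 0.707 and 21 ± 5.66, SD, n = 2 each, exact permutation p = 0.33, adjusted 0.67). With lists of equal length the 5 genes held 22 and 18 rows after siNT and 17 and 24 after siFOXA1, so the direction reversed.

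**Figure D4:**
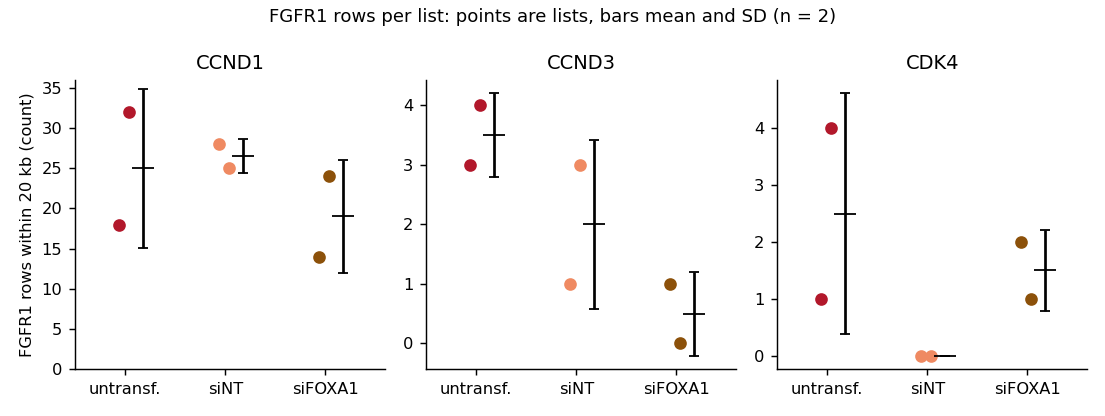
Number of FGFR1 rows inside each gene or within 20 kb of it (vertical axes, differing between panels) in untransfected, siNT and siFOXA1 lists, for CCND1, CCND3 and CDK4. Points are lists, and the bars beside them are mean and SD of the 2 lists of a group. At CDK4 both siNT points are at 0, and at CCND1 the siFOXA1 points lie at 14 and 24.

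Region by region, 11 reproducible siNT FGFR1 regions lay at these genes, 10 at CCND1 and 1 at the TAF8 side of CCND3. Of these, 5 were also in both siFOXA1 lists, all at CCND1, and 3 were in 1 list. The remaining 3 were in neither, 2 at CCND1 and the CCND3 one. Over all 2231 siNT regions, 36.4% were in both siFOXA1 lists, 29% in 1 and 34.7% in neither. The CCND1 regions found in both siFOXA1 lists included the start and the region inside the gene. The 2 CCND1 regions found in neither were a stretch with summits at -17.38 and -17.1 kb from the start and siNT folds of 4.71 and 5.01 and a stretch at the far end with 4.39 and 4.07. Conversely, 10 reproducible siFOXA1 regions lay at these genes, 9 at CCND1 and 1 at CDK4, of which 6 were shared with both siNT lists and 3 with neither, 2 at CCND1 and the CDK4 one. Over all siFOXA1 regions 65.1% were shared with both siNT lists and 16.7% with neither.

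Genes with a pattern most like each member were ranked by the mean absolute difference, over the 14 lists, in the percentile of the strongest row at a gene end. Genes with an end within 20 kb of the member, such as TAF8 beside CCND3, share rows with it and were left out of the ranking. Members without reproducible FGFR1 at an end in untransfected cells were not ranked. Closest to CCND1 were HOOK2 and JUNB, at 2.06 percentile points each, then TMEM63B (2.48), FAM89B and TSEN54 (3.14 each), where the median gene differed by 71.5 points. HOOK2 and JUNB, both on chromosome 19, had the same value in every list and are not 2 separate matches. JUNB encodes a component of AP-1 that is induced by growth factors. Closest to CCND3 were HSPE1 (3.62), HMGN4 (3.8), RNF43 (5.68), LUC7L2 and FMC1 (5.84 each), with a median gene at 44.4. LUC7L2 and FMC1, both on chromosome 7, likewise had the same value in every list. The CCND3 values used for FGFR1, Pol II S5P, H3K4me3 and H3K27ac were those of rows with summits beside TAF8. The CCND3 ranking therefore does not separate CCND3 from TAF8. Closest to CDK4 were BMPR1A (8.24), DNAAF5 (8.97), NR2C2 (9.45), IFT52 (9.47) and SLC25A29 (9.49), with a median gene at 35.6. Of these 5, NR2C2, which encodes a nuclear receptor, had a row in both siFOXA1 lists (percentiles 77.5 and 64.7) and in neither siNT list, as CDK4 did. These rankings are descriptions of 14 lists that share cells and, within a group, the target.

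The wider cell cycle pathway was described with a list of 53 genes that act on or downstream of CDK4 and CDK6, all of which were matched. In untransfected cells 18 of the 53 (34%) had a reproducible FGFR1 region at an end, where 19.9% of all genes had one. All 18 also had Pol II S5P there, as did 3683 of all 3981 genes with FGFR1 at an end. Pol II S5P lay at 36 of the 53 (67.9%, against 38.9% of all genes), and FGFR1 lay at 18 of those 36 (50%), where 47.4% of all 7764 genes with Pol II S5P had it. The list's FGFR1 share among genes with Pol II S5P was thus near that of all such genes. H3K4me3 lay at 51, H3K27ac at 52 and FOXA1 at 28 of the 53 (96.2%, 98.1% and 52.8%, against 66.6%, 67.5% and 32.3% of all genes). After siNT and after siFOXA1 1 gene of the list, the same gene E2F4, had FGFR1 at an end (1.89% each, against 4.85% and 1.95% of all genes).

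Each role holds few genes, and differences between roles were not tested. Of all genes, 19.9% had FGFR1 at an end in untransfected cells and 38.9% had Pol II S5P. By role, FGFR1 lay at an end of 2 of 4 INK4 inhibitors, which bind CDK4 and CDK6 directly. It lay at none of the 3 CIP/KIP inhibitors, which also act on later kinases. The INK4 genes were CDKN2B, with folds of 7.28 and 10.4, and CDKN2D, with 5.91 and 6.66. None of the CIP/KIP genes had reproducible Pol II S5P at an end either. Of the pocket proteins, which the cyclin D kinases phosphorylate, 2 of 3 had FGFR1, RB1 among them with folds of 5.46 and 6.44. FGFR1 lay at 5 of 10 E2F factors and partners. E2F3 had folds of 4.78 and 18.9. E2F4, a mainly repressive E2F, had 7.28 and 14.4 without transfection, 30.4 and 31 with siNT, and 20.9 and 19.1 with siFOXA1. Of 7 later cyclins and kinases 2 had it, including CDK2, the partner of cyclin E, with folds of 9.1 and 16.

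Cyclin D turnover and the chaperones of CDK4 filled most of the rest. FGFR1 lay at 4 of 8 turnover genes, among them GSK3B (folds 6.37 and 9.33), whose kinase marks cyclin D1 for export and degradation, FBXO31 (5.91 and 7.11) and CUL4A (5.23 and 9.55), both parts of ubiquitin ligases. HSP90AB1, a chaperone of CDK4, had the highest mean percentile of the list, with folds of 11.1 and 15.3, and was 1 of 3 chaperone genes with FGFR1. None of the 3 subunits of the CDK-activating kinase had it. Of 12 E2F target genes, many of which act in DNA replication, 2 had FGFR1 and 11 had Pol II S5P. Over all genes the shares were 19.9% and 38.9%, and 47.4% of genes with Pol II S5P had FGFR1. MCM7, a subunit of the replicative helicase, had folds of 5.23 and 6.88. With folds of 21.6 and 27.8, the CCND1 start stood above every one of these named genes in both untransfected lists. In the 4 transfected lists E2F4 had the higher fold, 30.4 and 31 against 20.1 and 17.9 with siNT and 20.9 and 19.1 against 16.7 and 17.2 with siFOXA1. CDK4, with 7.96 and 8.88, lay within their range in both lists.

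**Figure D5:**
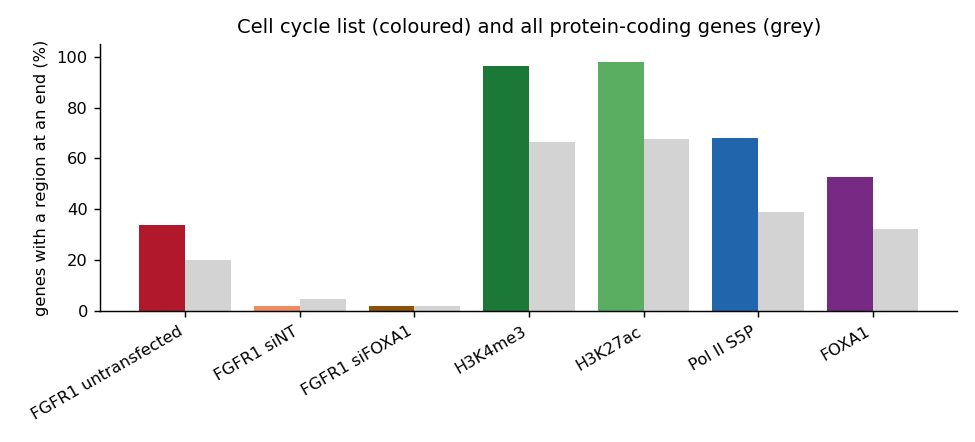
Share of genes with a reproducible region within 1 kb of a gene end (vertical axis, percent) for the 53 genes of the cell cycle list (coloured) and all 19974 protein-coding genes (grey), by group. The list stands at 34% for FGFR1 in untransfected cells and 67.9% for Pol II S5P, and at 1.89% for FGFR1 after siNT and after siFOXA1.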

How the data were processed

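ChIP-seq peak lists of CAMA1 cells were used as deposited, 1 per library. The tools Bowtie2, SAMtools, Picard and MACS2 and the build hg38 are named in the submitters' processing notes, and versions, settings and roles are not given in the sources used here. The authors' deposited rows hold the fold enrichment of a peak as a linear ratio, its −log10 p-value and −log10 q-value, and the summit. Names of peaks give other replicate numbers than the labels for untransfected FGFR1, and read FOXA2 in the lists labelled FOXA1. The labels were used.

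Fragment counts were read from the regular grid of the deposited fold values, except for Pol II S5P, whose values were not whole. Gene positions came from a RefSeq table of GRCh38.p14, whose primary assembly is that of hg38, and the 7 inputs were not used here. A reproducible region is a merged stretch with a row of both lists (overlap of at least 1 bp). Numbers of rows were compared by a two-sided exact permutation test with Benjamini-Hochberg adjustment. Python 3.11.15, pandas 2.3.3 and scipy 1.17.1 were used, and the region calls were tested on simulated data. Alternatives were reciprocal overlap of 50%, a −log10 q of at least 5, windows of 500 bp and 3 kb, and a flank of 1 kb. Others were lists of equal length, merged rows, lists left out in turn, a replicate block and the listed RefSeq starts. Named genes were the 5 members, genes with an end within 20 kb of them, the 12 listed cell cycle genes of highest FGFR1 percentile, and the 5 genes most like each member with FGFR1. A gene that this rule takes is not reported here. The members, lists and tests were chosen with earlier results of these data known.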

Additional observations from a re-analysis of the deposited data

How the results depend on the processing

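Of 112 values under alternative settings, 100 were counted as kept, 11 moved and 1 reversed. Numbers of genes and regions were kept when they stayed within a set ratio. Differences in rows were kept when their sign stayed, whatever their size. With a −log10 q of at least 5, the difference was -2 at CCND1 and -1.5 for the 5 genes together, from -7.5 in each. Some of the 100 could not change. CCND2 and CDK6 had no FGFR1 row in any transfected list, so their differences in rows stayed at 0. The replicate block leaves a difference as it is by construction, and merging rows changed no difference. With a −log10 q of at least 5, the members with FGFR1 at an end fell to 1 after siNT and 1 after siFOXA1 (CCND1 in both), the CCND3 difference in rows was 0, and 1 siNT region was in neither siFOXA1 list and 0 were in 1 list. With listed RefSeq starts, chosen after seeing the data, 1 member had FGFR1 after siNT. It was CCND1, which has no listed start and kept its call at a gene end. H3K27ac lay at 3 members, without CDK6, with reciprocal overlap of 50%, a window of 500 bp or a −log10 q of at least 5, and at 3 kb H3K4me3 and H3K27ac lay at all 5, CCND2 included. FOXA1 lay at 4 members with a window of 3 kb, and at 2 to 4 with a single list. With lists of equal length the difference in rows, siFOXA1 minus siNT, was 0 at CCND1 and 0.5 for the 5 genes together, where it had been -7.5 in each. This setting keeps fewer rows of the longer lists, and no other cause was tested. With reciprocal overlap of 50%, 0 siNT regions were in 1 siFOXA1 list and 3 in both, and the cause was not tested. Leaving out each list in turn gave differences of -12.5 to -2.5 at CCND1, -2.5 to -0.5 at CCND3, 1 to 2 at CDK4 and -11.5 to -3.5 together. Without the first siFOXA1 list the CCND1 and joint differences were the smallest. Same-numbered siNT and siFOXA1 lists did not deviate together over 19974 genes (r = -0.0176), of which 4106 had a deviation. With 2 lists per group this cannot show whether the numbers pair the libraries, and the labels do not state a pairing. With the replicate block the differences were -7.5 at CCND1, -1.5 at CCND3 and 1.5 at CDK4, with exact p of 0.5, 1 and 0.5. The weakest listed rows of the transfected FGFR1 lists held 10 fragments, which limits what could be seen at CDK4 and CCND3.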
